A study of Caenorhabditis elegans with 12 samples.

Results

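The genes described here encode the secreted peptide signals of the worm: the flp genes, for FMRFamide-like peptides, the nlp genes, for neuropeptide-like proteins, and the ins genes, for insulin-like peptides. They were chosen by name alone, as every gene whose WormBase symbol is flp, nlp or ins followed by a number. The rule uses no measured value. Of 20182 genes in the table, 138 carried such a name (31 flp, 69 nlp and 38 ins), and the genes nlp-58 and nlp-78 were not analysed here. The 108 genes with at least 10 counts in 3 or more libraries are reported (30 flp, 58 nlp and 20 ins). Of those 108, 36 reached that level in 3 or more inputs but in fewer than 3 IPs, and none did so through the IPs alone. The other 30 comprised 1 flp, 11 nlp and 18 ins genes, of which 5 had no count in any library and 11 had fewer than 10 counts in all libraries together. The highest of them, nlp-53, had 79 counts over the 12 libraries.

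Neuropeptides and insulin-like peptides are made as precursors, cut and modified in the secretory pathway, packed into dense core vesicles and released to act on receptors of other cells. FLP and NLP peptides act mostly through G protein-coupled receptors, whereas insulin-like peptides bind the insulin receptor DAF-2, some as agonists and some as antagonists, and so set the activity of the transcription factor DAF-16. Most of these genes are expressed in neurons, but a cluster of short nlp genes is expressed in the epidermis, where several encode antimicrobial-type peptides that are induced by infection and wounding. The intestine and other tissues also release peptides of these families.

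RNA bound to a FLAG-tagged protein was recovered with anti-FLAG beads (IP) and sequenced beside the RNA of the same lysate (input), an assay called RIP-seq, from whole worms of mixed L3 and L4 stage grown for about 30 h at 25 °C on E. coli NA22. The LIN41 strain carried the lin-41 allele n2914 and the transgene xeSi197, in which Plin-41, the gene's own promoter, drives flag-gfp-lin-41 ahead of its own 3'UTR. LIN41 is an RNA-binding protein of the heterochronic pathway. The control strain carried the transgene xeSi55, in which Pdpy-30, a promoter active in most cells, drives sart-3 joined to gfp, his and flag ahead of the 3'UTR of xrn-2, so that the strains differed in the promoter as well as in the protein. Both carried him-5(e1490), which raises the share of males. Each of the 4 groups held 3 libraries from independent experiments, each IP library was pooled from 5 parallel IPs, and all inputs ran in lane 3 and all IPs in lane 4 of the sequencer, so that lane and library type cannot be told apart.

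Libraries held between 291466 and 2024430 counts, fewest in the IPs, and the peptide genes took between 0.387% and 0.674% of them. The level of lin-41 itself was 181 to 2016 CPM (counts scaled to a common library size, with TMM factors) in the LIN41 IPs and 8.45 to 20.2 CPM in the SART-3 IPs, and sart-3 was at 27.4 to 41.1 CPM and 56.4 to 80.8 CPM. Markers of neurons, which express most of these genes, summed to between 742 and 1383 CPM over 22 genes in every library.

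The 108 reported genes are short, and this bears on every comparison below. Their lengths, nearly all of them coding lengths without UTRs, ranged from 165 to 981 bp with a median of 288 bp, against 1008 bp over all genes, and all 108 lay under that median. Because reads with the same 5′ end had been collapsed to 1 before counting, a short gene can hold only as many counts as it has start positions. A threshold of 0.5 counts per base in a library was exceeded by 9 of the 108 genes (8.33%), as against 2.47% of all genes. The threshold was a choice, and collapsing can also remove reads of genes under it. The gene flp-9, for example, held 137 counts over 309 bp in the LIN41 input of replicate 1. For nlp-24, the most crowded of the 108 at 0.811 counts per base, the 6 inputs held between 172 and 197 counts. This was a 1.15-fold range, although the totals of those libraries spanned 2.35-fold. The genes lay on all chromosomes, with 30 on X, 21 on V, 17 on II, 15 each on I and IV, and 10 on III. Exons of 15 of them overlapped those of another protein-coding gene, 14 on the opposite strand, and whether strand was used in counting is not given in the sources used here.

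To compare levels between genes, CPM in the inputs were divided by coding length in kb. The highest values belonged to short epidermal-type nlp genes: nlp-24 averaged 561 CPM per kb (345 to 790 over the 6 inputs), nlp-33 520 (322 to 734), nlp-31 447 (303 to 580) and nlp-27 402 (207 to 601). Between nlp-31 and nlp-27 came nlp-36 at 421 (241 to 596), whose exons overlap those of the tRNA synthetase gene dars-1 on the opposite strand, itself at 238 CPM. The ranges of these 5 genes over the inputs overlapped. Within libraries, nlp-24 was the highest of the 5 in each of the 6 inputs. The order of the others was not resolved, as nlp-33 lay under nlp-31 in the SART-3 input of replicate 1. All 5 passed the threshold for crowding. Among flp genes, flp-24 led at 263 CPM per kb (226 to 324), followed by flp-14 at 221, flp-9 at 204, flp-15 at 181 and flp-8 at 172. Peptides of flp-24 act in stress-induced sleep. In the ins family, ins-35 at 247 (132 to 436) and ins-27 at 241 (141 to 367) were nearly level, ahead of ins-33 at 163, ins-17 at 103 and ins-28 at 95.3.

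**Figure D1:**
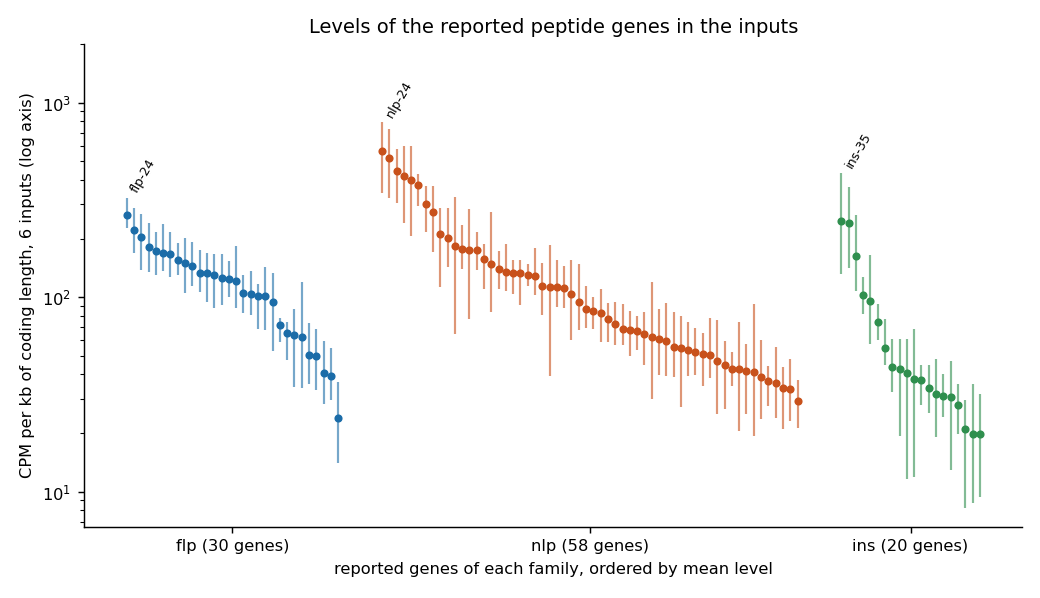
Level of each of the 108 reported genes in the 6 inputs, in CPM per kb of coding length on a log axis, ordered by mean within the flp, nlp and ins families. Points are means over the 6 inputs and lines run from the lowest to the highest input, and nlp-24 at 561, flp-24 at 263 and ins-35 at 247 head their families.

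The study asked which mRNAs associate with LIN41 beyond what the control IP recovers, which is the ratio of IP to input with LIN41 over that with SART-3. No peptide gene passed this test. Of 94 reported genes that passed the filter on low counts (28 flp, 53 nlp and 13 ins), 0 were higher and 0 lower at an adjusted p under 0.05 in edgeR's quasi-likelihood test, where 0.0415% of 12036 genes were higher and 0% lower. The lowest adjusted p of a peptide gene was 1.0, and the count stayed at 0 under each alternative setting tried. Without adjustment, 1 had p under 0.05 and was higher and 2 were lower, against 113 and 121 of all genes. The log2 values of the 94 genes had a median of 0.03 and an SD of 0.457, close to the −0.03 and 0.44 of all genes.

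Those 3 genes were flp-7, nlp-43 and ins-7. For flp-7, an FMRFamide-like peptide gene, the LIN41 IPs held 77.7, 57.6 and 38.9 CPM and their inputs 40.6, 33.5 and 18.3, whereas the SART-3 IPs held 53.5, 33.7 and 21.8 CPM and their inputs 46.6, 34 and 31.8. The IP exceeded its input in all 3 LIN41 pairs, but in 1 of 3 with SART-3, which gave a log2 difference of 1.01 (SE 0.366, unadjusted p = 0.0126 in edgeR). For ins-7, an insulin-like agonist of DAF-2 expressed in the intestine, the difference was −1.38 (SE 0.659), from only 7 counts in the 3 LIN41 IPs. For nlp-43 it was −1.40 (SE 0.661), from 6 counts there and 30 in the SART-3 IPs. The IP-to-input ratio of nlp-43 was 0.386 with LIN41 (exact 95% interval 0.137 to 0.883, counting error only). With SART-3 it was 1.22 (0.775 to 1.88). Both ins-7 and nlp-43 met the count rule for reported genes through the inputs alone. Their values are thus a description and no support for a fall in the LIN41 IP.

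Within each strain, many peptide genes were higher in the IP than in the input, whichever protein was tagged. Of 94 tested, 27 were higher and 1 was lower in the LIN41 IP, where 8.87% of all genes were higher and 5.33% lower. In the SART-3 IP, 30 were higher and 0 lower, where 10.5% of all genes were higher and 7.79% lower. Before adjustment, 1 gene (ins-5) was lower in the SART-3 IP with p under 0.05. The median over the 94 genes was 0.55 on the log2 scale in both, against −0.07 and −0.03 over all genes. The higher genes included 14 of 28 flp, 11 of 53 nlp and 2 of 13 ins genes with LIN41, and 13, 14 and 3 with SART-3. Medians of the families followed the same order with LIN41, at 0.83, 0.48 and 0.33.

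The FMRFamide-like genes flp-8, flp-12 and flp-24 had the lowest p in both IPs. For flp-8 (chromosome X, 14881419 to 14882267 in WBcel235), the LIN41 IPs held 316, 261 and 253 CPM and their inputs 57.9, 95.9 and 84.9. With SART-3 they held 231, 141 and 257 CPM, as against inputs of 87.2, 71.2 and 64.2. Every IP lay above every input in both strains, and the fitted log2 difference was 1.82 with LIN41 (SE 0.243, adjusted p = 0.000163) and 1.48 with SART-3 (SE 0.237, adjusted p = 0.00113). For flp-12, the LIN41 IPs held 197, 129 and 136 CPM above inputs of 47.9, 64.7 and 58.9, and the SART-3 IPs 175, 103 and 150 CPM above inputs of 70.2, 52.9 and 50.5. For flp-24, they held 229, 115 and 117 CPM above inputs of 47.5, 68.0 and 48.3 with LIN41, and 169, 114 and 138 CPM above inputs of 66.5, 52.2 and 49.2 with SART-3. The groups did not overlap for either gene, and the log2 differences were 1.44 and 1.28 for flp-12 and 1.47 and 1.32 for flp-24.

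Among nlp genes, nlp-17 came next, with LIN41 IPs at 128, 107 and 91.7 CPM above inputs of 42.3, 48.0 and 43.4, and SART-3 IPs at 144, 67.3 and 102 CPM above inputs of 59.1, 35.3 and 38. Its log2 differences were 1.32 (SE 0.241) and 1.21 (SE 0.223), while seld-1, which overlaps it on the opposite strand, was at 0.01 and 0.26. The epidermal-type genes nlp-33 (1.32 and 1.26) and nlp-24 (1.23 and 1.08) were similar in size, as was nlp-36 (1.12 and 1.11). Both nlp-33 and nlp-36 were crowded in the inputs, at up to 168 counts over 225 bp and 154 counts over 249 bp. Their values with a correction for collapsed reads are not given here. For nlp-24, LIN41 IPs of 412, 307 and 306 CPM stood above inputs of 83.8, 192 and 169, and SART-3 IPs of 302, 237 and 255 CPM above inputs of 128, 123 and 123. The gene glb-15, which overlaps nlp-24 on the opposite strand, was at 1.72 and −0.15. As nlp-24 was the most crowded peptide gene, a correction of the counts for the collapsing of reads lowered nlp-24 to 0.82 (adjusted p = 0.0334) and 0.67 (adjusted p = 0.0591). With it 26 peptide genes were higher in each IP, where 7.76% of all genes were higher and 4.37% lower with LIN41 and 9.14% and 6.84% with SART-3.

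**Figure D2:**
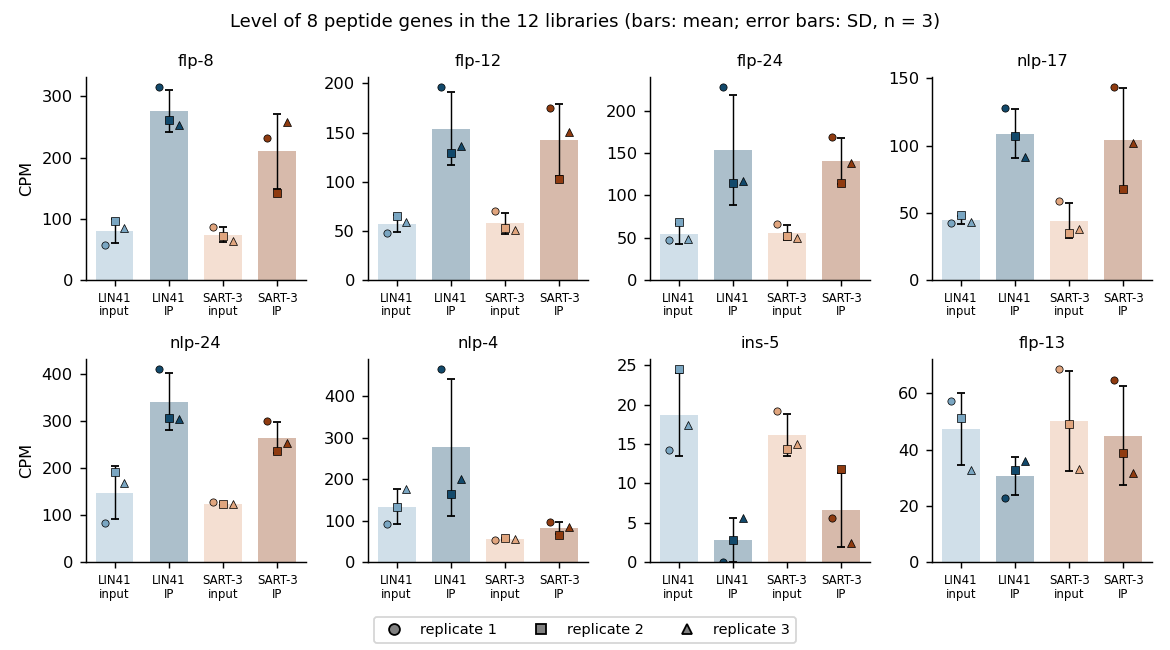
CPM of 8 named genes in each of the 12 libraries, with replicates as separate marks, bars at the mean and error bars for the SD (n = 3), each panel starting at 0 with its own scale. In flp-8, flp-12, flp-24 and nlp-17 every IP lies above every input of its strain, ins-5 goes the other way with LIN41, and nlp-4 lies higher in the LIN41 strain than in the SART-3 strain in all inputs.

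Altogether 21 of the 94 genes were higher in both IPs, where 888 of all 12036 genes tested were. The 21 made up 77.8% of those higher with LIN41 and 70.0% of those higher with SART-3. They included flp-14 (1.21 with LIN41 and 0.99 with SART-3 on the log2 scale), flp-22 (1.36 and 1.06), flp-9 (1.14 and 0.88), flp-3 (0.84 and 0.96), flp-5 (0.79 and 0.99), flp-18 (0.82 and 0.73), which encodes a ligand of the receptor NPR-1, nlp-40 (1.07 and 0.87), a peptide released from the intestine in the defecation rhythm, ins-33 (1.04 and 0.88) and ins-35 (1.11 and 0.86). With LIN41, the pair of replicate 1 was the highest for all of these but flp-3. Pairs of replicates 1, 2 and 3 were at 2.10, 0.60 and 0.43 for nlp-40 and at 2.02, 0.23 and 0.23 for ins-35. That of replicate 1 joins the smallest library (291466 counts) to the largest (2024430). For flp-14, every IP lay above every input of its strain, at 274, 244 and 178 CPM over inputs of 72.5, 124 and 107 with LIN41, and at 197, 150 and 192 CPM over inputs of 106, 82.3 and 81.6 with SART-3. Passing in the LIN41 IP alone were flp-7, flp-26, flp-32, nlp-4, nlp-5 and nlp-12, a cholecystokinin-like peptide gene of the motor circuit. Passing in the SART-3 IP alone were flp-20, flp-28 (1.31), ins-27 (0.98), nlp-7, nlp-15, nlp-27, nlp-31, nlp-50 and nlp-66. None of these 15 passed the test of the difference between the proteins. Of the 94 genes, 73 had positive values with both proteins and 10 had negative values with both, and over the 94 genes the log2 values correlated at r = 0.73 (0.81 over all genes tested). The share of all genes with such signs is not given here, so the 73 and 10 are a description only. The ratios share no library, but all IPs shared a lane and libraries of the same number deviated together.

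**Figure D3:**
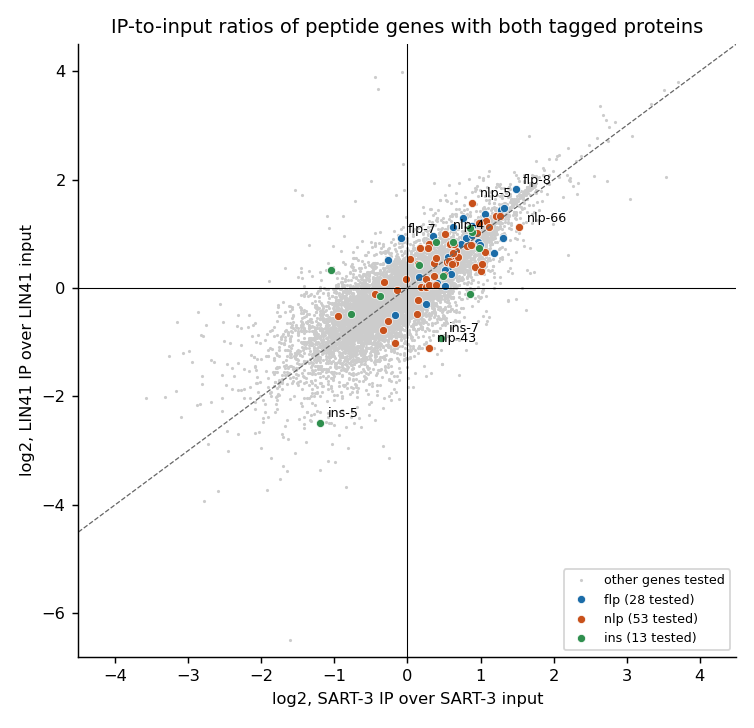
Fitted log2 ratio of IP to input with LIN41 (vertical) against SART-3 (horizontal) for the 94 tested peptide genes, coloured by family, over all other genes tested in grey, with the dashed line at equal values. Most peptide genes sit in the upper right, led by flp-8 at 1.82 and 1.48, and 73 of 94 are positive on both axes.

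The insulin-like gene ins-5, on chromosome II, was the 1 gene with a value past the threshold in the other direction. It passed the filter on low counts through the inputs alone, where it is high, so this value is a description and no support for a fall in the IP. Of 4 insulin-like genes tested that encode agonists of DAF-2, only ins-35 was higher in each IP, and of 3 antagonist genes none was (8.87% and 10.5% over all genes). The 3 LIN41 IPs held 0, 1 and 2 counts of ins-5 and their inputs 33, 22 and 18, a ratio of 0.185 (exact 95% interval 0.0373 to 0.563, counting error only). The fitted log2 difference was −2.48 (SE 0.699, adjusted p = 0.0246). The call was lost in DESeq2, without the replicate term and in 4 of 15 omissions of libraries. With SART-3, ins-5 had 2, 7 and 1 counts in the IPs and 26, 22 and 24 in the inputs, at −1.19 (SE 0.508, adjusted p = 0.106). The gene ins-31, not among the 108 reported, had 23 counts in 1 LIN41 input and 0 to 8 in the other inputs. It had no count in the 3 SART-3 IPs. As 3 counts were worth 5.05 to 8.45 CPM in those IPs, ins-31 was not detectable at this depth.

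Genes that act on these peptides were tested without and with a correction that removes each library's own trend of level with length, as they are longer. Without it, of 11 genes for propeptide processing, sbt-1, the chaperone of the convertase EGL-3, was higher in both IPs (0.89 and 0.80), egl-3 itself was lower with SART-3 (−0.68), and so was pamn-1, an amidating enzyme (−1.54). Medians of this list were −0.59 and −0.29. Without the correction, 8.87% of all genes were higher and 5.33% lower with LIN41, and 10.5% and 7.79% with SART-3. Of 12 genes for dense core vesicles, 0 were higher in either IP, rund-1 (−1.34) and vps-50 (−1.13) were lower with LIN41, and unc-31, needed for vesicle release, was lower with SART-3 (−1.89). None of 44 neuropeptide receptor genes tested was higher, and pdfr-1 was lower with LIN41 (−1.12). In the insulin pathway, 0 of 12 genes were higher and 2 and 4 were lower, among them ist-1 (−1.53 and −2.16) and, with SART-3, daf-2 (−1.41). With the correction, medians were −0.13 and −0.02 for processing, −0.18 and 0.04 for dense core vesicles, 0.36 and 0.20 for receptors, and −0.19 and −0.28 for insulin signalling. Calls of lower genes then numbered 0 and 0, 0 and 1, 0 and 0, and 1 and 2, so most of those above were lost. Of all genes, 3.29% and 5.21% were then lower. For processing, 2 and 1 were higher, where 10.8% and 11.9% of all genes were.

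Neuron markers had negative medians, with 1 of 19 higher and 3 lower with LIN41 (median −0.44) and 1 higher and 5 lower with SART-3 (median −0.56). Their summed level was 759 to 1020 CPM in the LIN41 IPs and 817 to 1307 CPM in the inputs. Of 11 intestine markers, 4 and 5 were higher and 1 was lower (medians 0.83 and 0.90). Counts of both marker lists stand beside 8.87% and 10.5% of all genes higher and 5.33% and 7.79% lower. Of 8 peptide genes tested outside the name rule, which are short as well, 2 were higher in each IP (medians of the 8 at 0.21 and 0.27). These were ntc-1, the nematocin gene (1.57 and 1.59), and lury-1 (1.29 and 1.54). With the correction for length the medians of the 8 were −0.24 and −0.13. The epidermal-type genes nlp-24 to nlp-34 had 3 and 5 of 10 higher (8.87% and 10.5% over all genes), and the caenacin genes, which encode related peptides, 3 and 2 of 5, cnc-8 in both (1.25 and 1.11). With the correction for length these were 2 and 1 of 10 and 1 and 0 of 5, beside the 10.8% and 11.9% of all genes that were higher then. The part of each cell type in these values was not tested.

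Length moved with the ratio over the whole table. Across all genes tested, the log2 ratio of IP to input correlated with log2 coding length at r = −0.42 with LIN41 and −0.47 with SART-3, and within the peptide genes at 0.02 and −0.12. When each library was first corrected for its own trend of level with length, the median of the 94 genes fell to 0.03 and 0.01, beside 0.06 over all genes. The numbers of higher genes were then 16 with LIN41 and 9 with SART-3, against 10.8% and 11.9% of all genes, and 3 and 2 were lower (3.29% and 5.21%). The difference from neuron markers shrank too, to medians of −0.02 and −0.32 for these longer genes (median 1537 bp). Other lists did not move that way: intestine markers stayed at 0.86 and 0.88 (median 1350 bp). Body wall muscle markers (median 4255.5 bp) went from 0.37 and 0.39 to 0.73 and 0.68.

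Higher in both IPs after that correction were 8 genes: flp-8, flp-12, flp-14, flp-18, flp-24, nlp-17, nlp-33 and nlp-36, all of them also higher in both without it. The largest was flp-8 at 1.52 with LIN41 (adjusted p = 2.45e-06) and 1.09 with SART-3 (adjusted p = 0.000367), followed by flp-12 at 1.04 and 0.82. The genes with lower values after it (ins-5, nlp-43 and nlp-71 with LIN41, ins-5 and nlp-47 with SART-3) all reached 10 counts in 3 libraries only through inputs, and nothing is read from them. By family the corrected medians were 0.34 and 0.23 for flp, −0.04 and −0.02 for nlp, and −0.10 and −0.01 for ins genes. Of the LIN41 calls, those of flp-8, flp-12, flp-14, flp-24 and nlp-17 held under every setting and every omission of a library that was run.

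**Figure D4:**
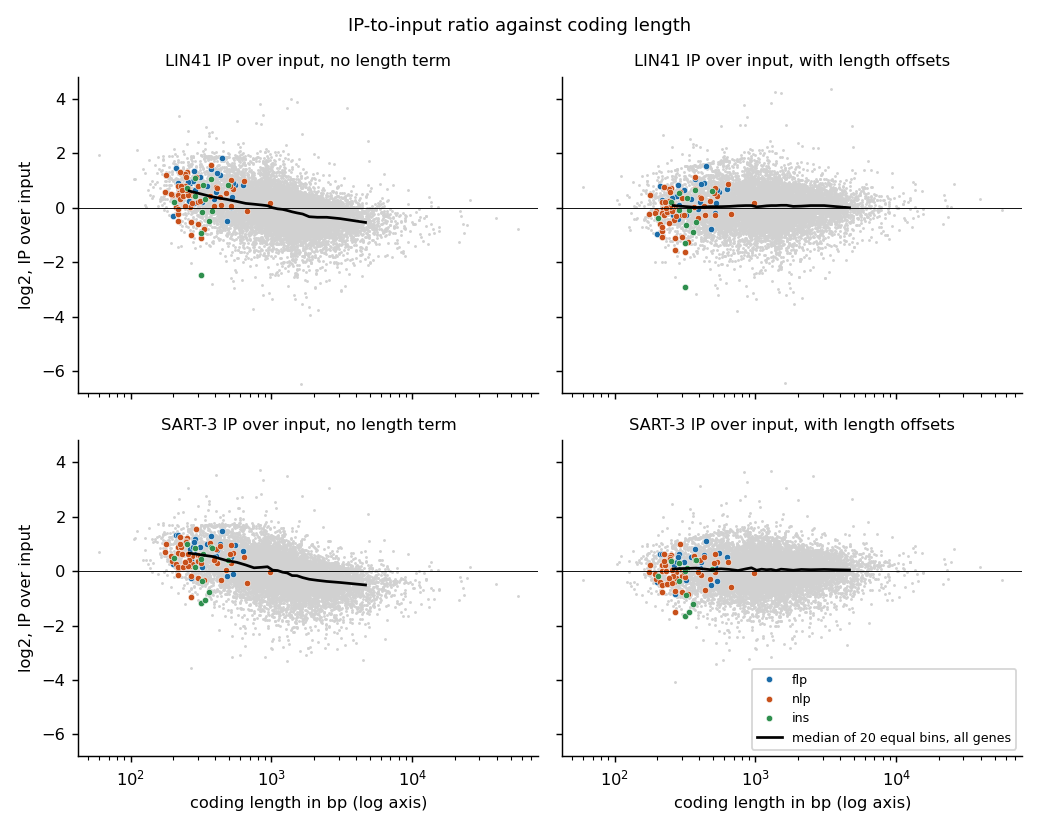
Fitted log2 ratio of IP to input against coding length (log axis) for the peptide genes, coloured by family, and all other genes tested in grey, without (left) and with (right) length offsets, for LIN41 (top) and SART-3 (bottom). The black line is the median of all genes in 20 equal bins, which slopes down on the left and is flat on the right, and the median of the peptide genes goes from 0.55 in both strains to 0.03 and 0.01.

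Leaving out an experiment changed the counts. Without replicate 3, 7 genes were higher in the LIN41 IP, where 1.23% of all genes were higher and 0.166% lower, and 0 in the SART-3 IP, where 0.241% were higher and 0.125% lower. Without replicate 1, 15 were higher and 1 lower in the LIN41 IP (9.2% and 5.62% of all genes), and 35 were higher in the SART-3 IP (16.7% and 11.1%), with all 30 of the above among them. Scaling by total counts in place of TMM factors shifted the median of all genes to −0.41 and −0.32, and 14 peptide genes were then higher and 1 lower with LIN41 (5.76% and 18.6% of all genes) and 20 and 2 with SART-3 (6.45% and 18.7%).

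Between the inputs of the strains, which compare the cultures before the IP, the peptide genes were nearly level. Only nlp-4 differed, higher in the LIN41 strain, of 94 genes tested, where 1.32% of all genes were higher and 0.0914% lower. Before adjustment, 2 had p under 0.05 and were higher and 2 were lower. The median was −0.06 and the SD 0.284, against 0.01 and 0.372 over all genes.

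The gene nlp-4, on chromosome I, was at 91.5, 133 and 176 CPM in the LIN41 inputs and at 53.9, 58.1 and 56.7 CPM in the SART-3 inputs. All LIN41 values lay above all SART-3 values, 2.32-fold on the fit (log2 1.21, SE 0.284, adjusted p = 0.0371). The IPs were apart as well, at 466, 165 and 200 CPM with LIN41 and 95.8, 65.6 and 84.9 CPM with SART-3, so that the ratio of IP to input was 0.99 with LIN41 on the log2 scale (SE 0.291). The direction held in every setting, with log2 between 0.91 and 1.63, but the call did not: the adjusted p was 0.0677 in DESeq2, 0.0643 with total counts, 0.0664 in thinned counts and 1.0 without the replicate term, and 9 of 15 omissions of libraries lost it. Next by p were nlp-26 at 0.70 (SE 0.198, adjusted p = 0.0935) and flp-3 at −0.53 (SE 0.213, adjusted p = 0.350).

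Replicate 1 decided how many others joined it. When replicate 1 was left out of both strains, 16 peptide genes were higher in the LIN41 inputs and 0 lower, where 15.4% of all genes were higher and 8.53% lower. The 16 were nlp-4 (1.42), a set of epidermal-type genes (nlp-24, nlp-25, nlp-26, nlp-27, nlp-29, nlp-31 and nlp-33, between 0.53 and 0.84), nlp-36, nlp-40, nlp-50, nlp-101, ins-27, ins-28, flp-8 and flp-14. For nlp-27, the SART-3 inputs were at 79.1, 79.7 and 74.2 CPM, whereas the LIN41 inputs were at 45.3, 132 and 118. In CPM it thus lay under the SART-3 strain in replicate 1 and above it in the others. In replicates 2 and 3 nlp-24 held 172 and 175 counts with LIN41 and 188 and 197 with SART-3. Of the 16, only nlp-4, nlp-26, nlp-101 and ins-28 held more counts in the LIN41 input of both replicates. These LIN41 inputs were shallower (859814 and 993849 counts, as against 1354051 and 1401265). The part of depth and of crowding was not tested. With replicate 1 kept, 3 of 12 sperm markers were higher in the LIN41 inputs (median 0.88), where 1.32% of all genes were. Of 19 epidermis and cuticle markers 2 were higher, with a median of 0.1 over the list. Its cuticle collagen genes bli-1 and bli-2 were at 1.45 and 1.23. The part of these marker genes in the result was not tested.

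The larger differences among inputs were between experiments. Replicate 1 was set against replicates 2 and 3 in a fit of the 6 inputs in which 107 of the 108 genes were tested. There 7 were higher and 6 were lower in replicate 1, where 15.7% of all genes were higher and 13.8% lower. The median of the peptide genes was 0.20, and 0.01 over all genes. In whole worms, fewer cells that express a gene and less RNA in each cell cannot be told apart.

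Higher in replicate 1 were nlp-8 and flp-13, both with roles in sleep, flp-3, nlp-2, nlp-59, flp-18 and ins-35. For nlp-8, the inputs of replicates 1, 2 and 3 were at 46.2, 23.4 and 15.4 CPM in the LIN41 strain and at 62.1, 27.4 and 18.7 CPM in the SART-3 strain. Replicate 1 was the highest in both strains, 2.65-fold above the others on the fit (log2 1.40, SE 0.199, adjusted p = 0.00641). The same held for flp-3, at 41.9, 19 and 23.2 CPM and at 66.5, 30.7 and 26.8 CPM (log2 1.14, SE 0.203). It held for ins-35, an agonist-type insulin gene, at 78.6, 55.8 and 37.6 CPM and at 124, 72.5 and 53.0 CPM (log2 0.93, SE 0.144). These inputs of ins-35 reached 0.639 counts per base, and its value with the correction for collapsing was 1.31. For nlp-2 (log2 1.25) the value was 1.70 in the SART-3 strain and 0.42 in the LIN41 strain. The other higher genes were nlp-59 (1.03), flp-13 (0.67) and flp-18 (0.58), all higher in both strains.

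Lower in replicate 1 were 4 epidermal-type genes, nlp-25, nlp-26, nlp-28 and nlp-30, and the insulin-like genes ins-7 and ins-37. For nlp-26, the inputs of replicates 1, 2 and 3 were at 22.0, 89.2 and 77.2 CPM in the LIN41 strain and at 17.7, 47 and 45.5 CPM in the SART-3 strain. Replicate 1 was the lowest in both strains, at 0.32 times the others (log2 −1.64, SE 0.210, adjusted p = 0.00467). The gene that overlaps it on the opposite strand, Y43F8C.3, moved up by 2.01 (adjusted p = 0.0074). For nlp-25, close by on chromosome V, the values were 20.3, 74.7 and 66.6 CPM and 26.6, 43.1 and 45.5 CPM (log2 −1.25, SE 0.263). For ins-7, whose expression is repressed by DAF-16, they were 5.61, 13.4 and 19.3 CPM and 3.70, 17.6 and 18.1 CPM (log2 −1.77, SE 0.376, adjusted p = 0.0155). These came from 13, 12 and 20 counts and from 5, 27 and 29 counts. As ins-7 met the count rule through replicates 2 and 3, where it is high, its value is a description and no support for a fall. The gene ins-37 was at −1.30 (SE 0.325), with 27 and 8 counts in the inputs of replicate 1, nlp-28 at −1.42 and nlp-30 at −0.65.

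Of the 10 epidermal-type genes tested, 0 were higher and 4 lower in replicate 1 (15.7% and 13.8% over all genes), with a median of −0.62. Their median was −1.19 within the LIN41 strain and 0.01 within the SART-3 strain, and the LIN41-strain value was the lower for all 10. For nlp-27 it was −1.41 as against 0.04. The gap was not particular to them: the LIN41-strain value was the lower for 93 of 107 peptide genes (86.9%, and 53.1% of all genes), among them flp-8 (−0.62 as against 0.36) and nlp-36 (−1.19 as against −0.06), with a median gap of −0.53 (−0.04 over all genes). The LIN41 input of replicate 1 was the deepest library (2024430 counts), and neither the part of depth nor the difference between the strains was tested. The genes nlp-34, nlp-31, nlp-30, nlp-29, nlp-28 and nlp-27 lie close together on chromosome V (3978825 to 3989770 in WBcel235), and in order of position had LIN41-strain values of −0.45, −0.88, −1.0, −1.25, −1.74 and −1.41. The 2 highest of these, nlp-34 and nlp-31, were also the most crowded, at up to 0.683 and 0.702 counts per base in the LIN41 input of replicate 1.

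**Figure D5:**
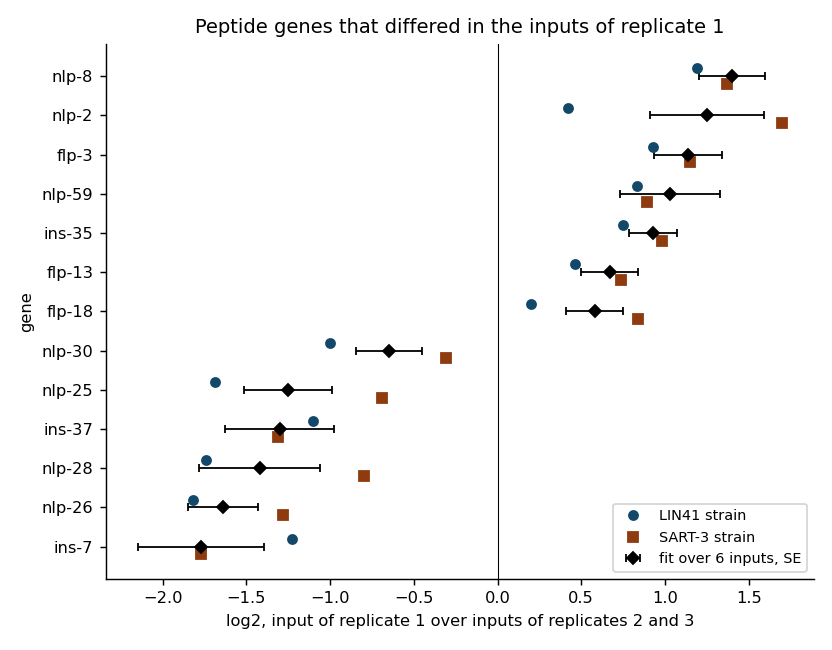
Log2 difference of the input of replicate 1 from the inputs of replicates 2 and 3 for the 13 genes that passed, as the fit over 6 inputs (diamonds, bars for the SE) and as the value within the LIN41 strain (circles) and the SART-3 strain (squares). All 13 have the same sign in both strains, from −1.77 for ins-7 to 1.40 for nlp-8.

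Counts for other lists are read beside the 15.7% of all genes that were higher and the 13.8% that were lower. Neuron markers had 9 of 21 higher and 0 lower (median 0.62), led by unc-104 (2.14). Genes for peptide processing had 5 of 11 higher (egl-3 at 0.71, egl-21, a carboxypeptidase, at 0.57), those for dense core vesicles 6 of 12 higher and 1 lower (unc-31 at 1.73), neuropeptide receptors 13 of 60 higher and 0 lower, and insulin signalling 7 of 12 higher (daf-2 at 1.57, daf-16 at 0.80). The flp genes had 3 of 30 higher, under the share of all genes, and 0 lower (median 0.30). Sperm markers had 8 of 12 lower (median −1.01), with summed levels of 200 to 931 CPM over the inputs, and epidermis markers 4 higher and 3 lower of 19, with bli-1 at −1.78. These lists are of longer genes than the peptide genes. Over the genes tested in the IPs, median lengths were 1537 bp for neuron markers and 2159 bp for dense core vesicles. They were 1276.5 bp for receptors and 1906.5 bp for insulin signalling. Values of the lists with the correction for length are not given here, and that correction changed the counts of peptide genes (below). The part of length, cell type or stage in the result was not tested.

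The counts differed with the input of replicate 1 that was kept. Replicate 1 is then a single library, assumed to vary like the others, from which the spread is taken. Without the LIN41 input of replicate 1, 24 genes were higher and 5 lower (17% and 14.9% of all genes), and without the SART-3 input 8 were higher and 24 lower (28.7% and 28.6%). A correction for length gave 48 higher and 5 lower, where 15.2% and 15.3% of all genes passed, and a fit over all 12 libraries 27 and 5, where 18.5% and 18.6% did. The calls of nlp-8, flp-3, ins-35, nlp-25 and nlp-26 held in every setting and every omission that was run. So did that of ins-7, which remains a description because of how it met the count rule.

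Between the inputs of replicates 3 and 2, 0 of 107 peptide genes and 0% of 12802 genes passed in either direction in edgeR's quasi-likelihood test, and 0 peptide genes passed in DESeq2 and in the likelihood ratio test. Without the SART-3 input of replicate 1, however, 1 was higher and 8 were lower in replicate 3 (5.29% and 3.79% of all genes), and without the LIN41 input of replicate 1 the numbers were 1 and 3 (6.58% and 2.24%). At an unadjusted p under 0.05, 1 was higher (ins-37, 0.94) and 5 were lower in replicate 3: flp-13 (−0.63), ins-35 (−0.53), nlp-1 (−0.63), nlp-16 (−0.72) and flp-9 (−0.55). The median was −0.21, and −0.05 over all genes.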

How the data were processed

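The values are counts of reads per gene, made by the authors before they were deposited: 50-base single-end reads with the same 5′ end were collapsed to 1, aligned with QuasR 1.20.0 (SpliceMap) and SAMtools 1.2, and counted over WormBase WS190 exons. The labels name the build ce10. Of 20182 genes, 93.04% had a symbol in the WBcel235 annotation, which also gave positions. The members and gene lists were chosen with earlier results of these data known.

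Counts as deposited were tested in edgeR 4.0.16 (R 4.3.3) by the quasi-likelihood test with the default filter by group, TMM factors, and terms for replicate, IP or input, protein and their interaction over 12 libraries (12036 genes). The replicates were compared in the 6 inputs (12802 genes). P-values were adjusted by Benjamini-Hochberg over all genes tested, with a threshold of 0.05, and SE was derived from the F statistic. The value of a single pair used a prior count of 2. Named with values were up to 10 members of lowest p in each direction past the threshold, the 5 highest of each family in the inputs, the 3 of lowest p where fewer than 3 passed, members of the role lists and members at 0 in a group. Other genes were chosen after their values were seen. The script was tested on simulated data.

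The replicate number entered as a block because libraries of the same number deviated together: all 12 pairs that are directly compared had r over 0.1 (lowest 0.24 over 11629 genes), and 17 of 18 pairs overall. The study describes the 3 replicates as independent experiments. Alternatives were the likelihood ratio test, limma-voom (limma 3.58.1), DESeq2 1.42.0, RLE factors, total counts, other filters, no block or a lysate block, thinned counts, length offsets (loess of level on coding length, span 0.3), a correction of counts for collapsed reads, 2 groups only, all 12 libraries and leaving out libraries. In the libraries, 3 counts were worth 1.30 to 13.7 CPM, and intervals cover counting error only.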

Additional observations from a re-analysis of the deposited data

How the results depend on the processing

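Counted calls and the 80 pairs of a named gene and a comparison kept their direction under the alternatives run, but with length offsets the medians of the nlp and ins genes in the IPs went from positive to just under 0. Peptide genes that passed in the LIN41 IP against input numbered 28, with 10 without the replicate block, 15 by total counts and 7 to 33 over omissions of libraries. In the SART-3 IP they numbered 30, with 9 without the replicate block, 11 with length offsets and 0 to 38 over omissions. Between the inputs of the strains 1 passed, with 2 by the likelihood ratio test, 0 without the replicate block, in DESeq2, by total counts and in thinned counts, and 0 to 16 over omissions. In replicate 1 there were 13, with 20 by the likelihood ratio test, 6 in DESeq2, 53 with length offsets, 32 over all 12 libraries and 6 to 32 over omissions, and between replicates 3 and 2 there were 0, with 0 to 9 over omissions, the 9 without the SART-3 input of replicate 1. The rule of 10 counts in 3 libraries kept 65 genes in thinned counts and 42 when asked of every library.

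Of those 80 pairs 72 were calls. RLE factors and a filter by the mean kept all 72, limma-voom 71, the correction for collapsed reads 67, DESeq2 52, total counts 48 and length offsets 39, while 19 of 59 were kept without the replicate block, 57 of 58 with a lysate block, 52 of 69 in thinned counts and 50 of 58 with 2 groups only. The causes of the changes were not tested, and the IPs, with the fewest counts, limit the precision for genes as low as ins-5, ins-7 and nlp-43.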

Other observations

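Across the 94 genes, the log2 ratio of IP to input correlated with the log2 level in the inputs (CPM per kb) at r = 0.42 with LIN41 and 0.46 with SART-3, near the 0.45 and 0.48 over all genes tested. The inputs enter both measures, so this is a description only. Of the same 94 genes, 48 had an IP above its input in all 3 LIN41 pairs and 57 in all 3 SART-3 pairs, while 6 and 7 had it below in all 3. These counts lack the share over all genes and are a description as well.

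The highest SART-3 ratio among the 94 was that of nlp-66, at 1.53 on the log2 scale, which passed there and not with LIN41. With LIN41 it was at 1.12 and positive in 3 of 3 pairs, from only 2, 9 and 7 counts in the IPs. The difference between the proteins was −0.41 (SE 0.602) and did not pass.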
